A study of Mus musculus with 12 samples.

Results

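Replication-dependent histone genes encode the bulk of the histones that package newly made DNA. The genes described here are every row whose symbol begins with Hist1h, Hist2h, Hist3h or Hist4, and for *Hist1h2bp* and *Hist1h2bq*, which had 2 rows each, the row with the higher mean over the 12 libraries was kept. This gave 58 genes of the 25263 symbols in the table: 5 of class H1, 17 of H2a, 14 of H2b, 10 of H3 and 12 of H4. The values were taken as FPKM, which count fragments relative to transcript length and library size, though neither header nor labels state the unit.

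The RNA is of leukemic cells from adult mouse bone marrow, driven by the fusion oncoprotein MLL-AF9 (MA9), in 4 groups of 3 libraries. WT-GFP and WT-Cre cells had the genotype MA9-Hoxa-wild type and the strain label C57BL/6, and they received a control GFP retrovirus or a retrovirus with Cre recombinase. Hoxa-flox cells had a floxed Hoxa cluster and the control virus, and Hoxa-del cells had the cluster deleted with Cre; both had the strain label C57BL/6J. All 12 samples were cultured overnight with IL-3, IL-6 and GM-CSF at 10 ng/mL each and SCF at 100 ng/mL, and were sorted for high GFP. The labels do not say whether the 3 libraries of a group came from separate leukemias, animals or cultures, so the p-values rest on the spread of these libraries alone, which may be technical. WT and floxed cells differ in genotype, in strain label and in any founder leukemia, and these cannot be told apart.

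A nucleosome holds the core histones H2A, H2B, H3 and H4, and linker histone H1 binds the DNA between nucleosomes. Cells make most of this protein in S phase, from clustered genes without introns that are transcribed together at histone locus bodies. Their mRNAs end in a conserved stem-loop in place of a poly(A) tail, so that libraries made by depleting ribosomal RNA, as here, keep transcripts that poly(A) selection would miss.

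The stem-loop is shown because it is the feature by which these mRNAs are processed and held stable. The pattern, a stem arm GGNNCT, a loop TTTN and a stem arm AGNNCC joined without gaps, was searched on the RNA strand in up to 120 annotated bases after the stop codon (GENCODE M21, GRCm38). Of the 43 genes with such a window of at least 16 bases, 35 held it, and 15 genes had no window. Of all 19584 coding genes with a full window, 0.128% held it. It began 22 to 59 bases after the stop codon (median 33). The matches fell into 6 forms, of which 1 example each is given below with 5 flanking bases on either side, the matched 16 bases in capitals and T for U.
Hist1h1d: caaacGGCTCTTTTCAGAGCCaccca
Hist1h4f: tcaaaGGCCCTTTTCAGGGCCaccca
Hist1h3e: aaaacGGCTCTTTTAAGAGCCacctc
Hist2h4: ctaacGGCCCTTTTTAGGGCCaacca
Hist1h4j: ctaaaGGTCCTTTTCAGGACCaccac
Hist2h2ac: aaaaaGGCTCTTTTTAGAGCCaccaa
The form of *Hist1h1d* was found in 19 genes, all of them H1, H2a, H2b or H3. The form of *Hist1h4f* was found in 6 genes, all H4. The form of *Hist1h3e* was found in 5 genes, and those of *Hist2h4*, *Hist1h4j* and *Hist2h2ac* in 2, 2 and 1. Among the H4 genes with a match the outer part of the stem read GGCCC or GGTCC, and in the other classes GGCTC. The 8 genes with a window and no match lack only these letters in the annotated bases.

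The 250 bases before the start site of 3 abundant genes are shown because genes of these classes moved together in the comparisons. They are RefSeq promoters (GRCm38.p6, read 5′ to 3′ on the gene's strand) with matches to 4 motifs in capitals. The motifs were CCAAT (bound by NF-Y), TATAAA (the TATA box), ATTTGCAT (the octamer bound by POU2F1) and TTTCGCGC (an E2F site), each searched on both strands, and no matches overlapped.
Hist1h2bb, chr13:23746484-23746733, plus strand: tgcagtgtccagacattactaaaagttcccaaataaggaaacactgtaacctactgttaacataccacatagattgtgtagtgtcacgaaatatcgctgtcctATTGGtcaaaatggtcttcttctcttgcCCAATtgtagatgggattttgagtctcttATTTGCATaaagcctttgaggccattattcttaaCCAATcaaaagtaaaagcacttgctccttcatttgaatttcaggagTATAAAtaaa
Hist1h3e, chr13:23562386-23562635, minus strand: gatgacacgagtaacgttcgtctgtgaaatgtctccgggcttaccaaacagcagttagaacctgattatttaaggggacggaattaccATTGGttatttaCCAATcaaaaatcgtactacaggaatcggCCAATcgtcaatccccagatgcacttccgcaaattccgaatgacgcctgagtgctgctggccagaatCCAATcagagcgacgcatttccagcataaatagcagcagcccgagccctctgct
Hist1h4f, chr13:23551669-23551918, minus strand: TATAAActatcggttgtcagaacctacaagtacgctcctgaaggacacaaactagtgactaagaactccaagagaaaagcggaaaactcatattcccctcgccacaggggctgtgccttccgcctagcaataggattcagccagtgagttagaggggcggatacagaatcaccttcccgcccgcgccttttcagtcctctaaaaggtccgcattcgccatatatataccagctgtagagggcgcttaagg
*Hist1h2bb* and *Hist1h3e* hold several CCAAT boxes, and *Hist1h4f* none.

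Of the 58 genes, 50 matched a RefSeq promoter, counted over 250 bases before to 50 after the start. CCAAT was found in 5 of 5 H1, 15 of 15 H2a, 11 of 11 H2b and 8 of 8 H3 promoters, but in 2 of 11 H4 promoters, against 37.4% of all 32851 RefSeq promoters of the same length. TATAAA stood in 30 of the 50 (all promoters 13.6%). In *Hist1h4f* it stood at the far end of the window, away from the start. ATTTGCAT was found in 7 of 15 H2a and 4 of 11 H2b promoters and in none of the H1, H3 and H4 promoters (all promoters 1.74%). TTTCGCGC was found in 8 of the 50, 5 H2a and 3 H2b (all promoters 0.323%). These are letter matches and not measured binding sites.

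The genes lie in 4 clusters of the GRCm38 genome. Cluster Hist1 on chromosome 13 held 45 of them, 44 within 2219.1 kb in a block of 19 genes (327.9 kb) and a block of 25 (403.8 kb). *Hist1h2al*, a processed pseudogene at chr13:51202727-51203065, lay apart from these blocks. Cluster Hist2 on chromosome 3 held 9 genes in 50.3 kb, Hist3 on chromosome 11 held 3, and *Hist4h4* lay alone on chromosome 6. In all, 55 genes are annotated as coding and 3 as pseudogenes (*Hist1h2aj*, *Hist1h2al* and *Hist3h2bb-ps*), and 54 have a single exon. A further 12 annotated symbols of these names, among them the H1 gene *Hist1h1b*, had no row under that symbol, so the class sums leave them out.

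Near-identical copies limit what can be said of single genes. In the shortest GENCODE transcript of each gene, 30 of the 58 genes shared over 50% of their 50-base stretches with another gene (median 53.8%). The median was 2.25% for H1, 67.6% for H2a, 56.5% for H2b, 62.0% for H3 and 39.9% for H4. How reads that fit several copies were assigned is not given in the sources used here, so levels of single core histone genes are uncertain, and class sums are given beside them.

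Estimated depth ran from 4.0 M fragments (WT-Cre 2) to 18.9 M (WT-GFP 3). At these depths 1 fragment in a transcript of 400 bases was worth 0.132 to 0.625 FPKM. The Hoxa genes, target of the deletion, summed to 292 to 322 FPKM in the WT libraries. The floxed libraries held 505 to 528 without Cre and 170 to 289 with it. Marker genes of leukemic myeloid cells summed to at least 2125.5 FPKM in every library, and those of erythroid, T and B cells to at most 1.7. Megakaryocyte markers summed to 88.9 to 106 FPKM in WT and 1.4 to 6.1 in floxed libraries, and stromal and endothelial markers to 11.8 to 14.0 and 18.4 to 48.5. The part of these markers in the differences between WT and floxed cells was not tested. The 6 floxed libraries fell into 2 sets of 3 on their first principal component, computed on 12997 other genes, of whose variance it held 64.3%. The first set held Hoxa-flox 1, Hoxa-flox 2 and Hoxa-del 2, and the second Hoxa-flox 3, Hoxa-del 1 and Hoxa-del 3. The sets cut across the Hoxa-flox and Hoxa-del labels and were read from these data. They are used for description and, in an alternative fit, as a term.

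Histone genes were among the abundant transcripts of these cells. Over the 12 libraries, 27 of the 58 genes had a mean of at least 100 FPKM, 19 of 10 to 100, 6 of 1 to 10 and 6 under 1. The 6 highest genes held 42.2% of all histone FPKM and the 10 highest 56.5%. All 52 genes with a mean of at least 1 FPKM were tested: 4 H1, 15 H2a, 11 H2b, 10 H3 and 12 H4. Nearest to that limit were *Hist1h2aj* (0.57) and *Hist1h2ba* (0.91) below it, and *Hist2h2be* (1.53) and *Hist1h2ap* (1.76) above it.

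The classes kept similar shares of the histone total in every library. H4 held 33.0% to 38.7% of the summed FPKM, H3 16.1% to 19.3%, H2b 17.2% to 20.2%, H1 15.9% to 19.1% and H2a 8.04% to 11.7%. These are shares of a per-length measure and do not count molecules of protein.

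The total differed between groups. Summed over the 58 genes it was 8763, 7458 and 7971 FPKM in WT-GFP and 6321, 6743 and 5523 in WT-Cre. Hoxa-flox libraries had 7354, 7573 and 9190, and those of Hoxa-del 9957, 15296 and 8247. WT-Cre was the lowest group and did not overlap any other. Hoxa-del overlapped Hoxa-flox, and its library 2 stood far above all others. The mean of Hoxa-del was 1.80 times that of WT-Cre and 1.39 times that of Hoxa-flox. Without Hoxa-del 2 these ratios were 1.47 and 1.13. Hoxa-flox and WT-GFP had nearly the same mean (ratio 0.997), and WT-Cre was at 0.768 of WT-GFP. In bulk samples fewer cells of a type and less RNA per cell cannot be told apart.

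**Figure D1:**
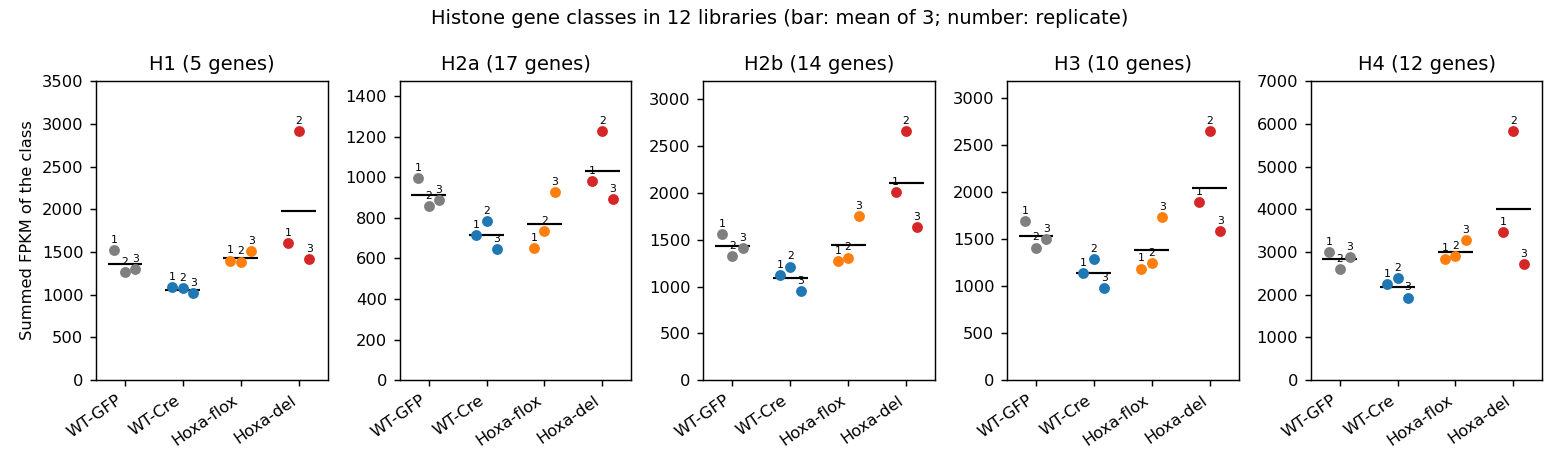
Summed FPKM (linear axis from 0) of the histone genes of each class in the 12 libraries, as points numbered by replicate, with the mean of 3 libraries as a bar. WT-Cre had the lowest mean in every class, and Hoxa-del 2 was the highest library in every class.

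In every class WT-Cre had the lowest mean and Hoxa-del the highest. Unlike the total, the H2a and H3 sums of WT-Cre overlapped those of Hoxa-flox. For H2a they were 715, 785 and 647 FPKM in WT-Cre and 652, 734 and 926 in Hoxa-flox. For H3 they were 1139, 1285 and 974 in WT-Cre and 1184, 1245 and 1727 in Hoxa-flox. WT-GFP cells had an H1 sum of 1361 ± 139 FPKM (SD, n = 3) and WT-Cre cells 1061 ± 34.1. Hoxa-flox cells had 1433 ± 68.1 and Hoxa-del cells 1982 ± 818. The H4 sum was 2824 ± 200 for WT-GFP, 2190 ± 236 for WT-Cre, 3006 ± 234 for Hoxa-flox and 4009 ± 1625 for Hoxa-del. In Hoxa-del against WT-Cre the ratio of means was 1.87 for H1, 1.44 for H2a, 1.92 for H2b, 1.80 for H3 and 1.83 for H4. H2a had the lowest of these ratios, and its ratio in Hoxa-flox against WT-GFP was the lowest of the classes (0.842).

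Within the sets of floxed libraries the comparison of Hoxa-del with Hoxa-flox went apart. In the first set Hoxa-del 2 had 2.05 times the mean total of Hoxa-flox 1 and 2. In the second the mean of Hoxa-del 1 and 3 was 0.990 of Hoxa-flox 3. With 1 or 2 libraries on a side these ratios have no replicate check. By class they were 1.77 (H2a) to 2.18 (H3) in the first set and 0.946 (H4) to 1.04 (H2b) in the second.

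Hoxa-del 2 was the highest of the 12 libraries for 41 of the 52 tested histone genes. WT-Cre 2 was highest for 5, Hoxa-del 1 for 3, WT-GFP 1 for 2 and Hoxa-flox 2 for 1. The median histone gene stood 0.81 above its mean over the libraries in Hoxa-del 2, on the log2(FPKM + 1) scale, against 0.02 for all 13169 tested genes. It stood at -0.51 to -0.20 in WT-Cre and at 0.34 and 0.09 in Hoxa-del 1 and 3. Other coding genes whose transcripts are all under 800 bases (127 genes) had a median of 0.27 in Hoxa-del 2, and all other genes with such transcripts (1478) one of 0.06. The values of all genes there summed to 1206356 FPKM, the highest of the libraries, beside a depth of 6.45 M fragments. The part of transcript length and depth in the level of this library was not tested.

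**Figure D2:**
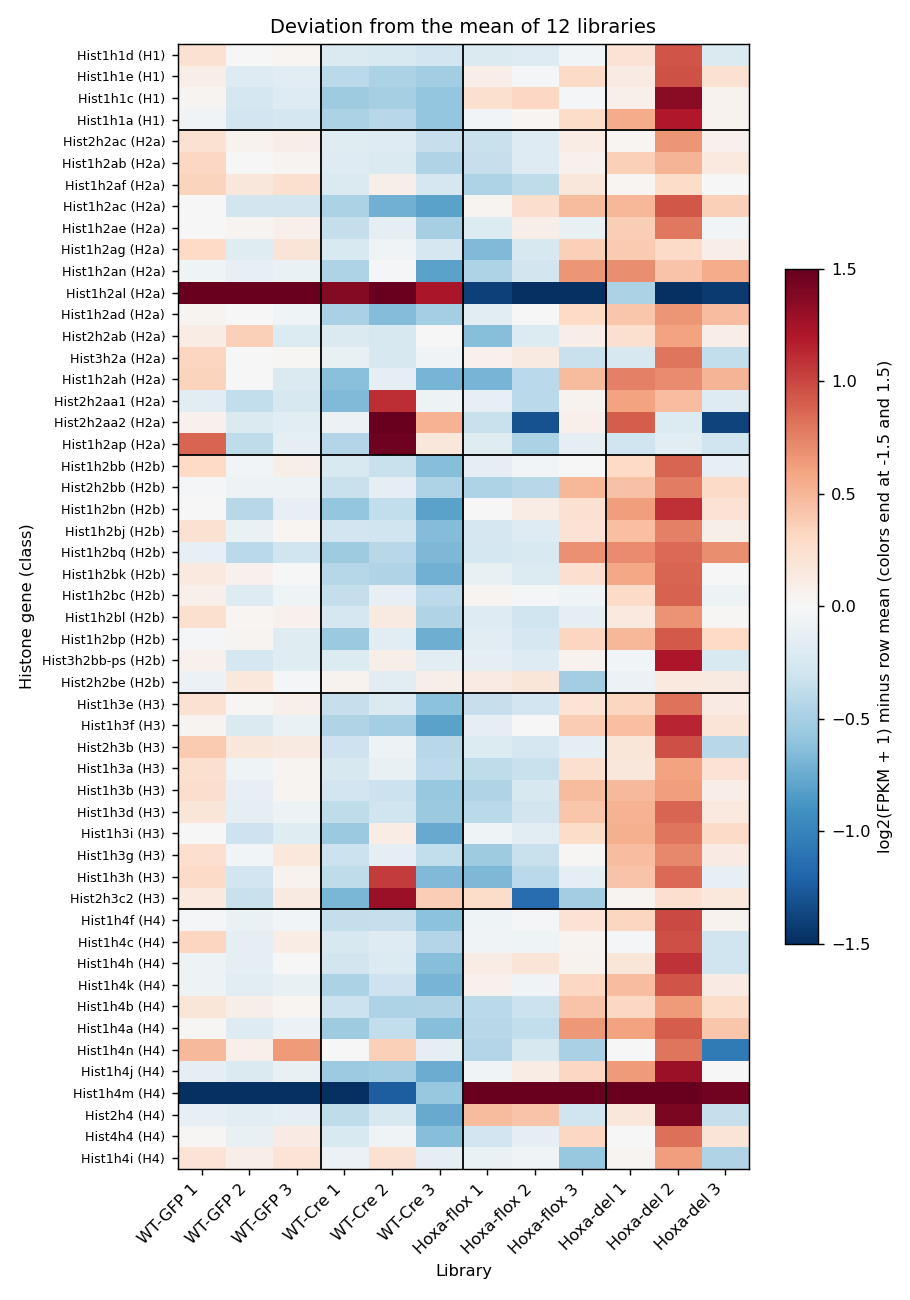
Color gives log2(FPKM + 1) of each of 52 histone genes (rows, by class) minus its mean over the 12 libraries (columns). The column of Hoxa-del 2 is red for most genes, the WT-Cre columns are mostly blue, and the rows of Hist1h4m and Hist1h2al split the WT from the floxed libraries.

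The question of the first comparison is how floxed and WT leukemic cells differ without Cre. Hoxa-flox and WT-GFP differed little in their histone genes. Of 52 tested, 1 was called higher and 1 lower (limma, adjusted p under 0.05), against 13.3% and 13.5% of all genes. The genes were *Hist1h4m*, an H4 gene, and *Hist1h2al*, an H2a pseudogene. The median change was -0.10 (all genes 0.00), with 21 genes above 0 and 31 below (all genes 50% and 49.8%). Groups did not overlap for 7 genes higher and 7 lower in Hoxa-flox, against 23.9% and 23.3% of all genes. Without Hoxa-flox 3, 6 genes were called, and *Hist1h2af*, *Hist1h2ag*, *Hist1h3g* and *Hist1h4b* joined as lower. Of all 13215 genes in that fit 2097 were called higher and 2096 lower.

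*Hist1h4m* (ENSMUSG00000069306.5, chr13:21811746-21812147, plus strand) was low in WT libraries and abundant in floxed ones. Its level was 1.93, 4.14 and 4.15 FPKM in WT-GFP and 1.11, 10.6 and 17.5 in WT-Cre. In Hoxa-flox it was 134, 128 and 110, and in Hoxa-del 133, 263 and 73.8. The WT and floxed libraries did not overlap. The change was 4.87 (SE 0.68, adjusted p = 3.5e-04, limma) in Hoxa-flox against WT-GFP and 4.17 (SE 0.68, adjusted p = 0.00106) in Hoxa-del against WT-Cre.

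Of the 50-base stretches of *Hist1h4m*, 89.8% also occur in *Hist1h4n*, a neighboring H4 gene at chr13:21831767-21832196. *Hist1h4n* was at 169, 127 and 188 FPKM in WT-GFP and 120, 154 and 108 in WT-Cre. In Hoxa-flox it was at 88.5, 101 and 85.3, below all WT libraries, and in Hoxa-del at 120, 210 and 57.0. Its change did not pass the test in Hoxa-flox against WT-GFP (-0.79, SE 0.37, adjusted p = 0.141, limma). In a fit of only these 2 groups it passed. The sum of both genes was 165 ± 31.0 FPKM (SD, n = 3) for WT-GFP and 137 ± 24.1 for WT-Cre. It was 216 ± 18.3 for Hoxa-flox and 286 ± 174 for Hoxa-del, so that the sum differed less between WT and floxed cells than *Hist1h4m* alone. Whether reads were divided differently between these copies was not tested. The H4 sum without *Hist1h4m* was 1.02 times WT-GFP in Hoxa-flox and 1.77 times WT-Cre in Hoxa-del.

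*Hist1h2al* (ENSMUSG00000091383.2) moved the other way. It was at 65.3, 51.2 and 55.1 FPKM in WT-GFP and 45.9, 63.0 and 41.1 in WT-Cre. In Hoxa-flox it was at 5.83, 2.94 and 2.36, and in Hoxa-del at 12, 5.34 and 5.67. All WT libraries lay above all floxed ones. The change was -3.69 (SE 0.32, adjusted p = 8.8e-06, limma) in Hoxa-flox against WT-GFP and -2.62 (SE 0.32, adjusted p = 1.25e-04) in Hoxa-del against WT-Cre. The row is a processed pseudogene, and 67.6% of its 50-base stretches occur in other genes, most in *Hist2h2aa2* (65.5%). *Hist2h2aa2* itself was at 0.000235 to 10.6 FPKM and did not pass in either comparison.

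**Figure D3:**
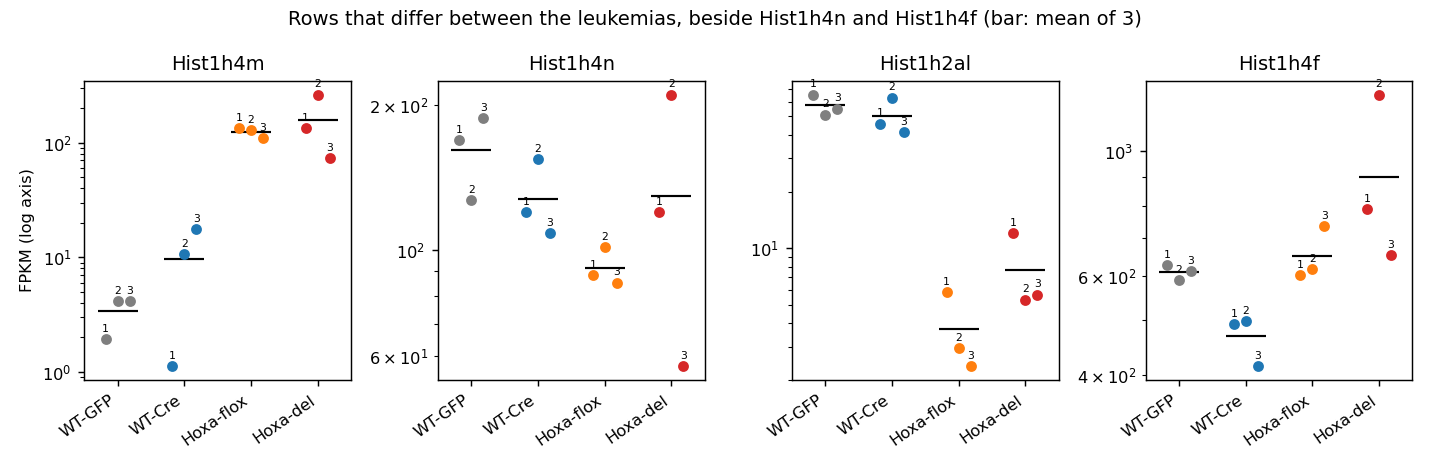
FPKM on a log axis of Hist1h4m, Hist1h4n, Hist1h2al and Hist1h4f in the 12 libraries, as points numbered by replicate with the mean of 3 as a bar. Hist1h4m and Hist1h2al separate WT from floxed libraries in opposite directions, while Hist1h4n overlaps between Hoxa-del and WT-Cre.

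Hoxa-del cells had higher histone mRNA than WT-Cre cells in every class. This comparison sets cells that received Cre side by side, with and without a floxed cluster. Of 52 tested genes, 30 were called higher and 1 lower (limma), against 13% and 14.2% of all genes. Above 0 lay 47 changes and below it 5 (all genes 50.3% and 49.7%), and an unadjusted p under 0.05 was found for 37 higher and 1 lower (all genes 19.0% and 19.6%). The median change was 0.73, where that of all genes was 0.00, and the called rises ran from 0.58 to 4.17. In 34 genes all Hoxa-del libraries lay above all WT-Cre libraries, and in 1 all lay below, against 20.7% of all genes in each direction. The comparison joins a lower WT-Cre with a higher Hoxa-del: the median histone gene was -0.35 in WT-Cre against WT-GFP and 0.47 in Hoxa-del against Hoxa-flox.

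The calls rest in part on single libraries. Without WT-Cre 3, 16 genes were called higher, and without Hoxa-del 2, 25 of the 30 remained. Of all genes 1174 of 13147 and 1730 of 13172 were called higher in these fits. With each of the 6 libraries left out in turn, 17 of the 31 called genes, *Hist1h2al* among them, passed every time. Among genes with at most 50% of their stretches shared 13 of 24 were called higher, and among the others 17 of 28. This split depends on the annotated transcript length.

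**Figure D4:**
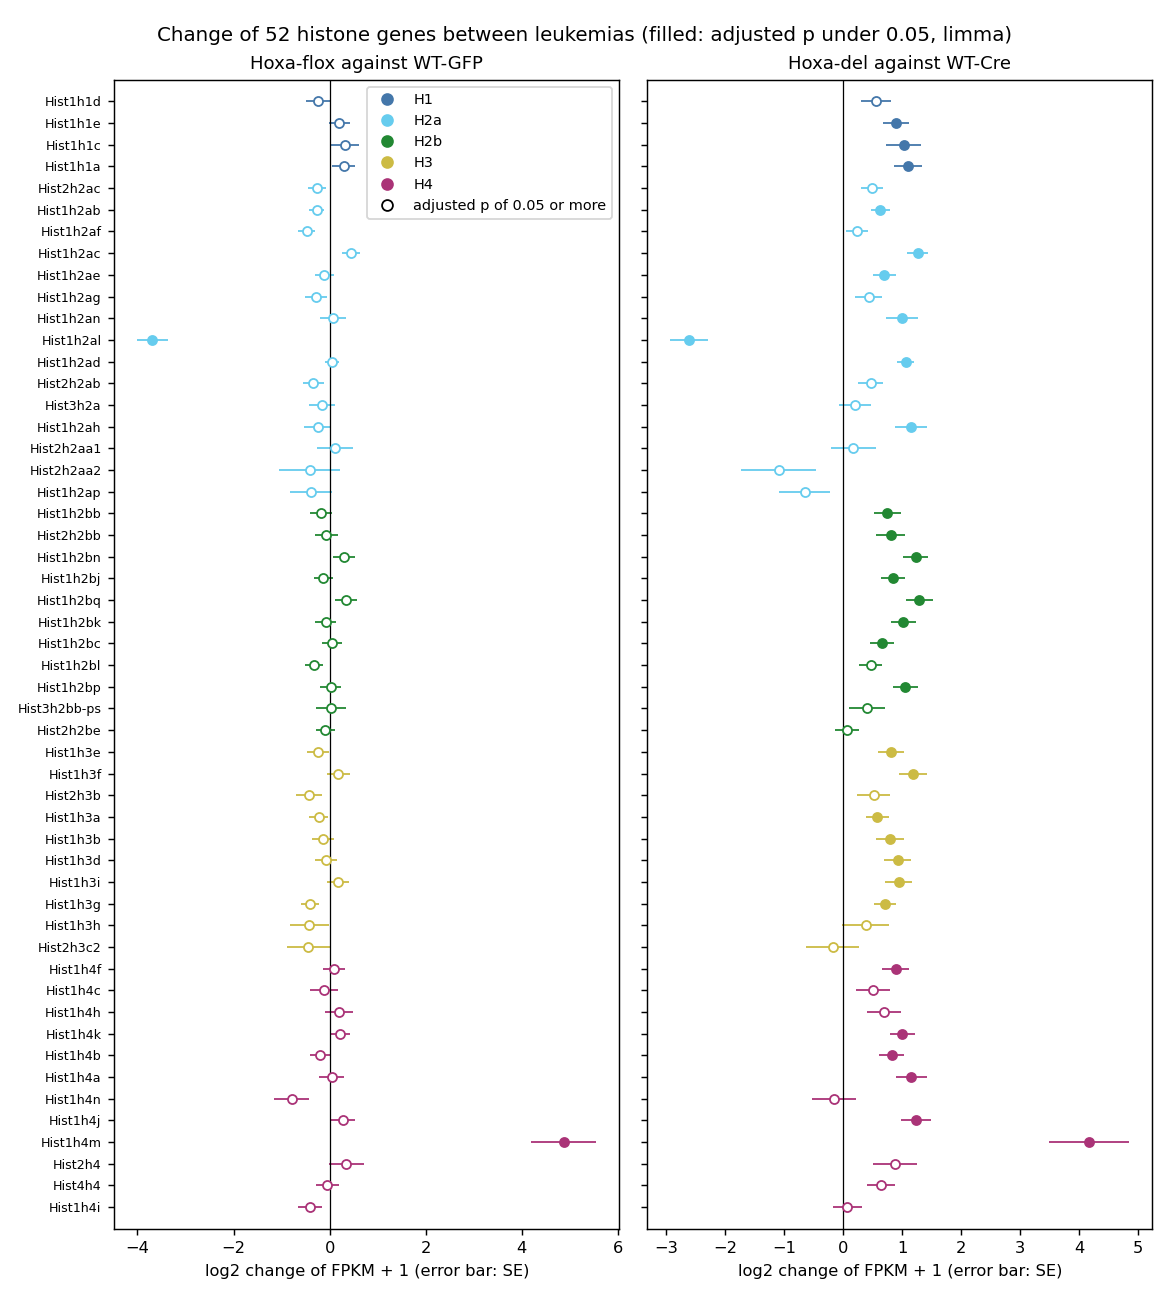
Change on the log2(FPKM + 1) scale of 52 histone genes, by class, with the SE as error bar and filled points where the adjusted p (limma) was under 0.05. The left panel (Hoxa-flox against WT-GFP) scatters around 0 apart from Hist1h4m and Hist1h2al, and the right panel (Hoxa-del against WT-Cre) has 30 genes called higher.

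H1 linker histones: 3 of the 4 tested genes were called higher in Hoxa-del against WT-Cre (all genes 13%), and all 4 changes were above 0 (all genes 50.3%). *Hist1h1e* was at 355, 336 and 327 FPKM in WT-Cre and at 510, 912 and 550 in Hoxa-del, with no overlap (change 0.90, SE 0.22, adjusted p = 0.0108, limma). *Hist1h1a* was at 104, 109 and 96.4 in WT-Cre and at 215, 335 and 150 in Hoxa-del (1.09, SE 0.24, adjusted p = 0.00616). *Hist1h1c* was at 184, 188 and 179 in WT-Cre and at 280, 682 and 277 in Hoxa-del, again without overlap (1.03, SE 0.29, adjusted p = 0.024). Its call was lost without any 1 of the 3 WT-Cre libraries (adjusted p up to 0.0704). *Hist1h1d*, the most abundant H1 gene, was at 444, 439 and 421 in WT-Cre and at 600, 991 and 442 in Hoxa-del (0.56, SE 0.25, adjusted p = 0.123). Its groups overlapped. *Hist1h1t*, the testis subtype, was at most 0.739 FPKM in any library.

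Of 15 H2a genes, 6 were called higher and 1 lower (all genes 13% and 14.2%). The 3 most abundant were *Hist2h2ac*, *Hist1h2ab* and *Hist1h2af*. *Hist1h2ab* rose from 124, 122 and 103 FPKM in WT-Cre to 182, 202 and 157 in Hoxa-del (0.63, SE 0.16, adjusted p = 0.0142, limma), and its call was lost without WT-Cre 3 (adjusted p = 0.0665). *Hist2h2ac* was at 200, 198 and 178 in WT-Cre and at 232, 360 and 236 in Hoxa-del. It did not pass (0.49, SE 0.19, adjusted p = 0.0784), although its groups did not overlap. *Hist1h2af* was at 109, 134 and 106 in WT-Cre and at 129, 154 and 127 in Hoxa-del, with overlap (0.23, SE 0.18, adjusted p = 0.37). The largest rise was that of *Hist1h2ac*, at 67.5, 56.7 and 53.5 in WT-Cre and at 134, 181 and 121 in Hoxa-del (1.26, SE 0.18, adjusted p = 4.1e-04). *Hist1h2ad* had a smaller adjusted p (2.2e-04) and a smaller rise (1.06, SE 0.14), from 15.4, 13.7 and 15.1 in WT-Cre to 29.6, 35.4 and 30.6 in Hoxa-del. In *Hist1h2ac* 14.1% of the stretches are shared with another gene. Its annotated transcript has 2482 bases, of which 2010 lie after the stem-loop, and the share up to the stem-loop was not computed. Among the rarer H2a genes, *Hist2h2aa1*, *Hist2h2aa2* and *Hist1h2ap* were highest in WT-Cre 2, the library of lowest depth.

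H2b genes were called in 8 of 11 cases, all higher (all genes 13% higher and 14.2% lower). *Hist1h2bb* was at 255, 237 and 192 FPKM in WT-Cre and at 368, 551 and 274 in Hoxa-del, without overlap (0.75, SE 0.23, adjusted p = 0.0344, limma). *Hist2h2bb* was at 227, 258 and 208 in WT-Cre and at 388, 486 and 349 in Hoxa-del (0.81, SE 0.24, adjusted p = 0.0301). Both calls were lost without WT-Cre 1, 2 or 3 and without Hoxa-del 1 or 2 (adjusted p up to 0.128 and 0.102). *Hist1h2bn* was at 143, 166 and 123 in WT-Cre and at 332, 460 and 248 in Hoxa-del (1.23, SE 0.22, adjusted p = 0.00187). *Hist1h2bq* was at 101, 110 and 91.4 in WT-Cre and at 240, 264 and 238 in Hoxa-del (1.29, SE 0.23, adjusted p = 0.00161). Both passed with each library left out. The shortest transcript of *Hist1h2bq* (381 bases) shares all its stretches with *Hist1h2br*, a gene at under 1 FPKM on average. *Hist1h2bn* shares 86.4% of its stretches.

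H3 genes were called higher in 7 of 10 cases (all genes 13%), and 9 changes were above 0 (all genes 50.3%). *Hist1h3e*, the most abundant, was at 437, 476 and 363 FPKM in WT-Cre and at 696, 980 and 604 in Hoxa-del (0.81, SE 0.22, adjusted p = 0.02, limma). Its call was lost without WT-Cre 1 or WT-Cre 3 (adjusted p up to 0.084). *Hist1h3f* was at 161, 154 and 126 in WT-Cre and at 301, 489 and 253 in Hoxa-del, without overlap (1.19, SE 0.24, adjusted p = 0.00362). It passed with each library left out. *Hist2h3b* was at 108, 128 and 101 in WT-Cre and at 154, 266 and 101 in Hoxa-del, with overlap (0.51, SE 0.28, adjusted p = 0.196).

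H4 genes were called higher in 6 of 12 cases (all genes 13%), and 11 changes were above 0 (all genes 50.3%). *Hist1h4f* was at 491, 498 and 414 FPKM in WT-Cre and at 789, 1261 and 654 in Hoxa-del (0.89, SE 0.23, adjusted p = 0.0147, limma), and its call was lost without WT-Cre 3 (adjusted p = 0.0629). *Hist1h4j* was at 60.8, 62.0 and 53.2 in WT-Cre and at 140, 218 and 89.2 in Hoxa-del (1.24, SE 0.26, adjusted p = 0.00438), also without overlap. Of the 7 H4 genes with a mean of at least 100 FPKM, *Hist1h4f*, *Hist1h4k*, *Hist1h4b* and *Hist1h4a* passed, and *Hist1h4c*, *Hist1h4h* and *Hist1h4n* did not. *Hist1h4c* was at 539, 558 and 467 in WT-Cre and at 630, 1242 and 518 in Hoxa-del (0.51, SE 0.28, adjusted p = 0.216). *Hist1h4h* was at 492, 520 and 384 in WT-Cre and at 676, 1269 and 487 in Hoxa-del (0.69, SE 0.29, adjusted p = 0.104). In both, Hoxa-del 3 lay within the WT-Cre range.

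Of the 31 calls in Hoxa-del against WT-Cre 30 were Hist1 genes (40 tested) and 1, *Hist2h2bb*, was a Hist2 gene (9 tested). Of all genes 27.2% were called in either direction. Neither of the tested Hist3 genes nor *Hist4h4* passed, although *Hist4h4* passed without Hoxa-del 1 and with upper-quartile rescaling. That rescaling also added *Hist2h2ac*, and leaving out Hoxa-del 3 added *Hist2h3b* and *Hist2h4*. Of all genes 1652 of 13177 were called higher with that rescaling and 1426 of 13166 without Hoxa-del 3. The Hist2 genes *Hist2h2aa1*, *Hist2h2aa2*, *Hist2h2be* and *Hist2h3c2* were rare, with means of 2.89, 2.28, 1.53 and 3.69 FPKM over the 12 libraries. *Hist3h2a* was at 18.9, 17.2 and 19.8 FPKM in WT-Cre and at 17.3, 36.7 and 15.7 in Hoxa-del (0.20, SE 0.27, adjusted p = 0.622, limma). *Hist4h4* was at 20.4, 23.1 and 15.2 in WT-Cre and at 24.0, 43.5 and 27.6 in Hoxa-del (0.65, SE 0.24, adjusted p = 0.0651). The pseudogene *Hist3h2bb-ps* reached 13.6 FPKM in Hoxa-del 2 and lay between 4.33 and 5.72 in the other libraries. *Hist3h2ba* was at most 1.08 in any library. The Hist2 genes summed to 606 ± 62.8 FPKM (SD, n = 3) in WT-Cre and 970 ± 281 in Hoxa-del, a ratio of 1.60, against 1.83 for the Hist1 genes.

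Several genes share a start region with a partner on the opposite strand. There were 8 such pairs less than 500 bases apart, each an H2a and an H2b gene. *Hist1h2ac* and *Hist1h2bc*, 250 bases apart, had like levels (means of 100.5 and 95.9 FPKM over the 12 libraries). *Hist2h2ac* and *Hist2h2be*, 238 bases apart, did not (231 and 1.53). *Hist1h2ah* and *Hist1h2bk*, 301 bases apart, also differed (11.6 and 129).

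Cre and the loss of the Hoxa cluster are compared within the floxed cells. In Hoxa-del against Hoxa-flox no histone gene passed (limma, adjusted p 0.729 to 0.996), against 0.00759% of all genes higher and 0.0228% lower (0.0304% in either direction). All 52 changes were above 0, against 41.3% of all genes above and 58.4% below, with a median of 0.47 (all genes -0.06). At an unadjusted p under 0.05, 20 were higher and 0 lower, against 2.86% and 3.42% of all genes. Groups did not overlap for 9 genes, all higher (all genes 2.25% higher, 4.14% lower): 4 H2a, 2 H2b and 3 H3. Without Hoxa-del 2, 43 changes were above 0 and 9 below, with a median of 0.27. The 20 genes at an unadjusted p under 0.05 became 6 without Hoxa-del 2, 5 without Hoxa-flox 1, 6 without Hoxa-flox 2 and 36 without Hoxa-del 3. They were 4 in a fit of only these 2 groups. Over all genes 826 of 13169 had an unadjusted p under 0.05, in either direction. That count was 4169 of 13172 without Hoxa-del 2 and 744 of 13166 without Hoxa-del 3. It was 418 of 13176 without Hoxa-flox 1, 430 of 13184 without Hoxa-flox 2 and 229 of 12843 with only these 2 groups. Without Hoxa-flox 3, *Hist1h2bq* passed (1.0, SE 0.14, adjusted p = 0.0427). That gene was at 122, 124 and 235 FPKM in Hoxa-flox and at 240, 264 and 238 in Hoxa-del.

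In WT cells the direction was the opposite. In WT-Cre against WT-GFP no histone gene passed (limma, adjusted p 1.0), against 0.00759% of all genes in each direction and 0.0152% in either. Below 0 lay 46 of 52 changes, against 57.2% of all genes below and 42.7% above, with a median of -0.35 (all genes -0.03). At an unadjusted p under 0.05, 8 were lower and 0 higher, against 1.21% and 1.15% of all genes, respectively. The 8 became 1 without WT-Cre 3, 2 without WT-GFP 1 and 4 without WT-GFP 3. They were 18 with upper-quartile rescaling and 33, beside 1 higher, with WT-Cre and WT-GFP fitted alone. Over all genes 312 of 13169 had such a p in either direction where 8 histone genes were lower. That count was 320 of 13177 with upper-quartile rescaling and 2220 of 13083 with these groups alone. It was 283 of 13147 without WT-Cre 3, 125 of 13207 without WT-GFP 1 and 215 of 13186 without WT-GFP 3. WT-Cre lay below WT-GFP without overlap for 31 genes (all genes 16.3%): 4 H1, 7 H2a, 5 H2b, 7 H3 and 8 H4. No tested histone gene lay above it without overlap (all genes 9.31%). *Hist1h4c*, the most abundant H4 gene in WT-GFP, was at 796, 572 and 687 FPKM there and at 539, 558 and 467 in WT-Cre. *Hist1h3e* was at 651, 563 and 585 in WT-GFP and at 437, 476 and 363 in WT-Cre. In both genes the WT-Cre libraries lay below all WT-GFP libraries, and neither passed the test.

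The difference between the Cre changes of floxed and WT cells was tested as an interaction. No histone gene passed (limma, adjusted p 0.780 to 1.0), against 0.00759% of all genes higher and 0% lower. Of 52 values 49 were above 0 (all genes 47.1%) and 3 below (all genes 52.9%), with a median of 0.80 (all genes -0.02), and 35 had an unadjusted p under 0.05, all above 0 (all genes 1.21% above, 1.25% below). By class the median was 0.75 for H1, 0.81 for H2a, 0.93 for H2b, 0.94 for H3 and 0.67 for H4.

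Histone levels were set beside the DNA replication genes, since both belong to S phase. In the second floxed set the DNA replication genes were high: their median deviation was 0.85 in Hoxa-flox 3, 0.51 in Hoxa-del 1 and 0.77 in Hoxa-del 3, with histone medians of 0.19, 0.34 and 0.09. In Hoxa-flox 1 and 2 both were low, at -0.40 and -0.42 for replication and -0.19 and -0.20 for histone genes. Hoxa-del 2 went apart, with replication genes at -0.21, cell cycle genes at -0.53 and histone genes at 0.81. The ratio of summed histone to summed replication FPKM was 23.7 in Hoxa-del 2, 13.1 and 13.6 in Hoxa-flox 1 and 2, and 6.90 to 9.81 in the second set. In the 6 WT libraries it was 8.95 to 11.5.

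**Figure D5:**
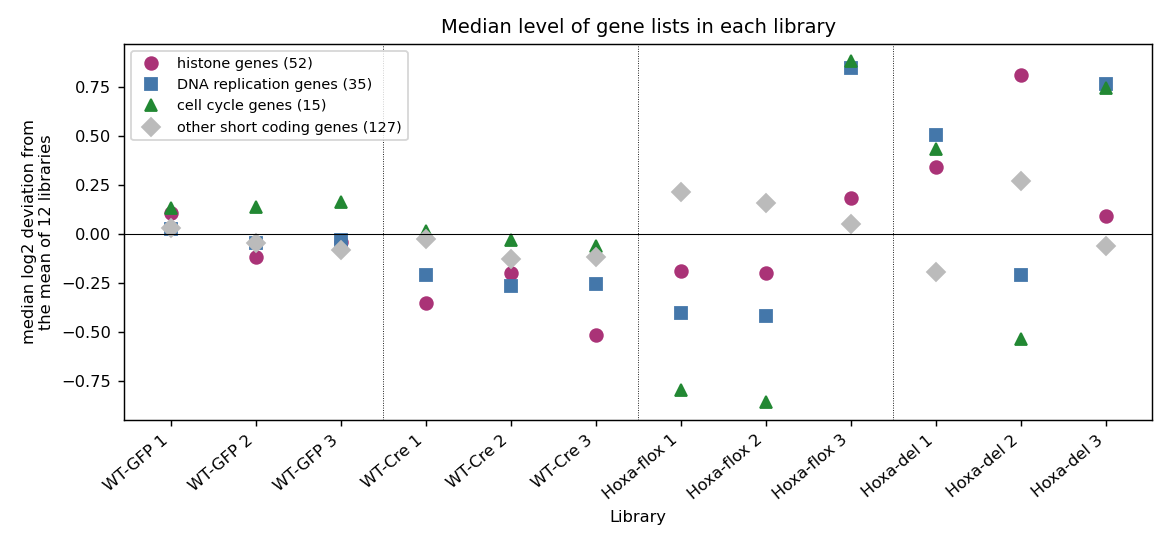
Median deviation from the mean of the 12 libraries, on the log2(FPKM + 1) scale, for 52 histone, 35 DNA replication, 15 cell cycle and 127 other short coding genes in each library. In Hoxa-del 2 the histone genes stand at 0.81 while replication and cell cycle genes stand at -0.21 and -0.53.

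*Mki67*, a marker of cycling cells, was at 16.4, 14.9 and 17.8 FPKM in Hoxa-flox 1, Hoxa-flox 2 and Hoxa-del 2. It was at 88.5, 84.6 and 93.2 in Hoxa-flox 3, Hoxa-del 1 and Hoxa-del 3, and between 65.1 and 78.2 in the WT libraries. Hoxa-del 2 thus sat with the low libraries for this marker and at the top for most histone genes. *Slbp*, which encodes the protein that binds the histone stem-loop, was chosen after its values were seen. It was at 24.6, 27.8 and 23.0 in the first set, at 48.0, 48.6 and 50.6 in the second and between 22.3 and 34.5 in the WT libraries. The part of cell cycle genes in the histone differences was not tested.

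Of the 35 tested DNA replication genes 5 were called higher and 0 lower in Hoxa-del against WT-Cre (all genes 13% and 14.2%), with a median of 0.47. In Hoxa-flox against WT-GFP 2 were called higher and 1 lower (all genes 13.3% and 13.5%), with a median of -0.02. *Pole*, the catalytic subunit of DNA polymerase epsilon, was at 7.38, 9.53 and 7.23 FPKM in WT-Cre and at 20.1, 15.5 and 21.2 in Hoxa-del (1.13, SE 0.15, adjusted p = 2.5e-04, limma). *Pole* was about as far apart in Hoxa-flox against WT-GFP (1.13, SE 0.15, adjusted p = 2.5e-04). Of the 15 cell cycle genes none was called in either comparison.

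Histone chaperones carry new histones to DNA. Of 21 tested, 3 were called higher and 1 lower in Hoxa-del against WT-Cre (all genes 13% and 14.2%). In Hoxa-flox against WT-GFP 1 was higher and 2 were lower (all genes 13.3% and 13.5%). *Ssrp1*, a subunit of the chaperone FACT, was at 63.1, 73.4 and 68.1 FPKM in WT-Cre and at 109, 108 and 125 in Hoxa-del (0.73, SE 0.15, adjusted p = 0.00443, limma). *Npm1*, nucleophosmin, was at 54.8, 55.7 and 60.9 in WT-Cre and at 205, 95.6 and 227 in Hoxa-del (1.51, SE 0.44, adjusted p = 0.0246). *Ubn1*, of the HIRA complex, fell by 0.46 (SE 0.10, adjusted p = 0.00672, limma).

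Of 19 tested genes for histone transcription and pre-mRNA processing, 1 was called higher and 2 lower in Hoxa-del against WT-Cre (all genes 13% and 14.2%). In Hoxa-flox against WT-GFP 1 was higher and 1 lower (all genes 13.3% and 13.5%). *E2f2*, a transcription factor of the cell cycle, was the gene that rose. It was at 2.71, 2.55 and 2.53 FPKM in WT-Cre and at 7.22, 6.27 and 9.50 in Hoxa-del (1.25, SE 0.19, adjusted p = 6.2e-04, limma). *Pou2f1*, which binds the octamer of H2b promoters, was lower in Hoxa-flox than in WT-GFP (-1.33, SE 0.36, adjusted p = 0.0189). It did not pass in Hoxa-del against WT-Cre (-1.04, adjusted p = 0.0541).

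Replication-independent histone variants, made also outside S phase and from polyadenylated mRNA, were counted in the same way. Of 11 tested, 4 were called higher and 0 lower in Hoxa-flox against WT-GFP (all genes 13.3% and 13.5%). The counts were also 4 and 0 in Hoxa-del against WT-Cre (all genes 13% and 14.2%). *H1f0*, the linker histone of slowly dividing cells, was at 13.8, 10.9 and 10.8 FPKM in WT-GFP and at 63.6, 65.2 and 36.1 in Hoxa-flox (2.08, SE 0.28, adjusted p = 2.8e-04, limma). It was at 66.6 in Hoxa-del 2 and at 32.9 and 33.1 in Hoxa-del 1 and 3, so that the first set was higher than the second. *H2afv*, an H2A.Z gene, was at 25.4, 27.6 and 27.7 in WT-GFP and at 50.9, 48.7 and 50.8 in Hoxa-flox (0.87, SE 0.18, adjusted p = 0.00447). *H3f3b*, an H3.3 gene and the most abundant variant in WT-GFP, did not pass (-0.07, SE 0.16, adjusted p = 0.795).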

How the data were processed

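Total RNA was isolated with TRIzol and made into stranded libraries depleted of ribosomal RNA, per the labels' protocols. The authors deposited 1 table of 28042 rows with a value per library, whose unit was taken as FPKM, though neither header nor labels state it. The authors' tools before the FPKM values were deposited were, per the submitters' processing notes, STAR, Cufflinks and Cuffdiff 2.2.2.20150701. The notes name mm10 and GRCm38 as builds and give neither the tools' roles nor their order. How the authors scaled libraries and assigned reads that fit several copies is not given in the sources used here.

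Genes and lists were chosen with earlier results of these data known. Repeated symbols were reduced to their highest row by mean. All 4 groups entered a single limma-trend fit (limma 3.58.1, run in R 4.3.3) of log2(FPKM + 1). It covered 13169 symbols whose mean reached 1 FPKM, and p-values were adjusted over all of these (Benjamini-Hochberg, threshold 0.05). Adding 1 makes the log2 changes of low genes smaller than their true size. The fit was tested on simulated data. Class sums got no test. Depth was estimated from the steps of low FPKM values; no counts were used. Named genes were the 3 most abundant of each class, up to 6 called genes with the largest rise and fall in the comparisons of floxed with WT cells, the H1, Hist3 and Hist4 genes, and from each list some of the 3 most abundant and the 3 with the smallest adjusted p in Hoxa-flox against WT-GFP. Other genes named with a value, such as *Hist1h4n* and *Slbp*, were chosen after their values were seen. Annotation and transcripts were GENCODE M21 and promoters RefSeq (GRCm38.p6). Tables used Python 3.11.15, pandas 2.3.3 and numpy 2.4.6, and figures matplotlib 3.10.9.

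Alternatives were a pseudocount of 0.1, no filter, upper-quartile and median-of-ratios rescaling, array weights, a replicate block, the library set as a term, summed repeated rows, only the 2 groups compared, and each library left out in turn. Class sums without Hoxa-del 2 or without *Hist1h4m* and *Hist1h2al*, other short genes, and calls split by shared stretches were chosen after seeing the data.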

Additional observations from a re-analysis of the deposited data

Results flagged for a closer look

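In 4 histone genes every WT-Cre library lay below every WT-GFP library, while every Hoxa-del library lay above every Hoxa-flox library. Taken singly, the first pattern was met by 16.3% of all genes and the second by 2.25%. The share of all genes with both was not computed, so the count is a description only. The difference between the Cre changes of floxed and WT cells, on the log2(FPKM + 1) scale, was 0.90 for *Hist1h2ab*, 1.01 for *Hist1h2ad*, 0.96 for *Hist1h2bq* and 1.12 for *Hist1h3g*. None passed the test of the difference itself over all genes (limma interaction, adjusted p = 0.780 for *Hist1h2ad* and 1.0 for the others). *Hist1h3g* was at 97.6, 79.9 and 91.7 FPKM in WT-GFP, at 65.4, 74.3 and 63.2 in WT-Cre, at 56.4, 64.8 and 83.1 in Hoxa-flox and at 114, 136 and 89.8 in Hoxa-del.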

How the results depend on the processing

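With array weights, whose estimation did not converge, 30 histone genes were called in Hoxa-del against WT-Cre, against 31. The other counts moved from 2, 0, 0 and 0. They were 28 genes in Hoxa-flox against WT-GFP (7 higher, 21 lower) and 18 in Hoxa-del against Hoxa-flox, all higher. They were 2 in WT-Cre against WT-GFP (*Hist1h2ad* and *Hist1h4b*) and 35 for the interaction. Of all 13169 genes this fit called 4627 higher and 4559 lower in Hoxa-flox against WT-GFP, and 2096 and 3077 in Hoxa-del against Hoxa-flox. It called 5 and 13 in WT-Cre against WT-GFP, 1512 and 1940 for the interaction and 2245 and 2568 in Hoxa-del against WT-Cre. The cause was not tested. With only the 2 groups fitted, 4 genes were called in Hoxa-flox against WT-GFP, and 20 of 30 remained higher in Hoxa-del against WT-Cre. Of 12935 genes in all, 1878 were higher and 1796 lower in the former, and of 13423 in the latter 1073 and 1304. Leaving out 1 library gave 2 to 6 calls in Hoxa-flox against WT-GFP (6 without Hoxa-flox 3), 17 to 34 in Hoxa-del against WT-Cre (17 without WT-Cre 3), 0 to 1 in Hoxa-del against Hoxa-flox and 0 in the other contrasts. With the library set as a term 0 genes were called in Hoxa-del against Hoxa-flox and 0 for the interaction. An unadjusted p under 0.05 was found for 33 and 41, all above 0. Of all 13169 genes 1585 and 1000 had such a p, in either direction. These fits reuse the data that defined the sets. In the pairs that share a replicate number the deviations did not go together in every comparison (r from -0.30 to 0.72), so the numbers were not taken as pairing, and not every library correlated best with its own number. With the replicate block 2, 30, 0, 0 and 0 genes were called in the 5 contrasts. The 7 genes with the largest called changes kept their calls under all 126 alternatives of their 9 comparisons. The ratios of the total over all classes moved by less than 1 SD of the libraries with either rescaling and with summed repeated rows. The same held without *Hist1h4m* and *Hist1h2al*. Without Hoxa-del 2 the log2 ratio of Hoxa-del over WT-Cre fell from 0.85 to 0.55, and that over Hoxa-flox from 0.47 to 0.18. Hoxa-del 2 widens the SD used as the limit, so this limit cannot judge its removal. Depth limits the rare genes: 1 fragment was worth up to 0.625 FPKM in WT-Cre 2.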
